A study of Arabidopsis thaliana with 18 samples.

Results

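PR1 (AT2G14610), BGL2 (AT3G57260, also called PR2) and PR5 (AT1G75040) are the transcripts most often used in Arabidopsis thaliana to read the activity of the salicylic acid defence pathway. They were followed here through probe sets 266385_at, 251625_at and 259925_at, 3 of the 22810 probe sets of the ATH1 array, taken by their identifiers as known defence markers. Earlier results of these data were known when they were chosen. The platform's annotation table does not name these rows, and the gene table of TAIR10.1 gives the 3 identifiers the same symbols. All 18 arrays carried RNA of the accession Van-0, 9 from samples given 0.3 mM SA (salicylic acid) in 0.02% silwet, a wetting agent, and 9 from samples given 0.02% silwet alone. Each title carries a Rep number from 1 to 3, and each run of 3 consecutive title numbers holds every Rep number once. A title set here joins a silwet run with the SA run at the same place in title order. A treatment and title set together thus have 3 arrays. No label states this matching, and every comparison by title set rests on it. A further number in each title goes with it, since its order puts the SA and silwet arrays of each set and Rep number side by side. The labels give no tissue, plant age, growth condition, sampling time or pooling, nor what a title set stands for.

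Salicylic acid accumulates in leaves attacked by biotrophic pathogens and is sensed by NPR1 and its relatives NPR3 and NPR4. NPR1 then works with TGA and WRKY transcription factors to switch on the pathogenesis-related genes, whose products are secreted. PR1 encodes a small secreted protein of the CAP family, BGL2 a beta-1,3-glucanase that can attack fungal cell walls, and PR5 a thaumatin-like protein. PR1 and BGL2 are the standard reporters of systemic acquired resistance.

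Values are MAS5 signals on a linear scale, set by the authors to the same overall level on every array, with array medians from 23.3 to 36.6. The leaf transcript RCA (Rubisco activase) lay between 1429 and 4059, and the root hair transcript EXPA18 between 8.60 and 25.6. Of the listed markers of leaf, root, flower, senescing leaf and guard cells, RCA, EXPA18, SAG29 and FMA could be tested, and none passed in any comparison of SA with silwet. Some silwet arrays stood apart from the others of their title set. On the silwet arrays of Rep 1 in title sets 1 and 2, 25.5% and 26.3% of probe sets lay at least 2-fold from the mean of the other pair of arrays of the same treatment and set. On the silwet array of Rep 1 in set 3 the share was 14.1%, and on the other 15 arrays it was 2.68% to 12.3%. The 5' to 3' signal ratio of the GAPDH control, which falls with degraded RNA or short labelled fragments, was 0.465 and 0.225 on the silwet Rep 1 arrays of sets 2 and 3, and 0.989 on that of set 1.

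The first question was whether the 3 transcripts were higher with SA than with the wetting agent alone. PR1 was the member with the widest difference, and it lay almost wholly in title set 1. There its signal was 2382, 3415 and 2534 on the SA arrays of Rep 1, 2 and 3, against 1870, 353 and 1299 on the silwet arrays. Every SA array lay above every silwet array. The set means were 2777 ± 558 with SA and 1174 ± 766 with silwet (SD, n = 3 each), and the mean log2 difference was 1.53 ± 0.40 (SE), a 2.88-fold higher geometric mean with a 95% interval of 0.69 to 2.36 on the log2 scale. The smallest difference among arrays of the same Rep number was 1.27-fold, in Rep 1, and the largest was 9.68-fold, in Rep 2. The adjusted p was 0.0835 by limma over all tested probe sets, so PR1 missed the threshold of 0.05. The exact permutation p within this set was 0.1, the smallest that 3 against 3 arrays can give.

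In the same comparison 132 of 15922 probe sets passed, which is 0.829%, while 18.6% had groups that did not overlap and 8.54% had all SA arrays above all silwet arrays. None of the 3 members passed, and PR1 alone had groups that did not overlap. A larger difference than that of PR1 was found in 0.477% of probe sets. The call for PR1 moved with 1 silwet array and with the scaling. Without the silwet array of Rep 1 the log2 difference was 2.01 with an adjusted p of 0.0268 by limma, and after quantile normalization it was 1.72 with an adjusted p of 0.033. Without the silwet array of Rep 2, the lowest of all 18, it was 0.81 with an adjusted p of 0.137. Over all alternatives the adjusted p of PR1 in set 1 ran from 4.1e-05 to 0.81.

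**Figure D1:**
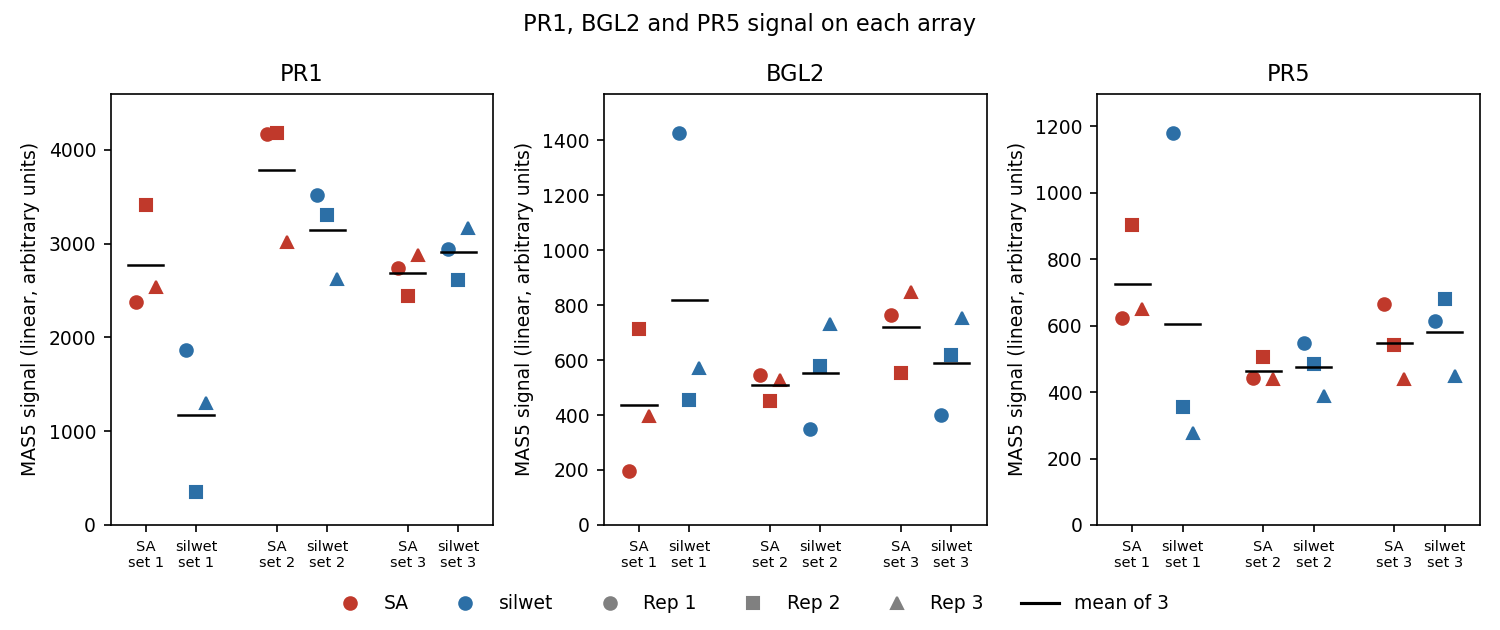
MAS5 signal of PR1, BGL2 and PR5 (linear, arbitrary units) on each of the 18 arrays, by treatment and title set; points are arrays, their shape is the Rep number, and black lines are means of 3. PR1 is low only on the 3 silwet arrays of set 1 (353 to 1870), and the silwet array of Rep 1 in that set holds the highest BGL2 (1427) and PR5 (1181) signals.

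In title set 2 PR1 was 4167, 4184 and 3016 with SA, against 3517, 3302 and 2629 with silwet. The SA array was the higher one for each Rep number, by 1.15-fold to 1.27-fold, but the groups overlapped. The log2 difference was 0.26 ± 0.40 (SE; adjusted p = 0.793 by limma). In title set 3 PR1 was 2744, 2447 and 2882 with SA, against 2949, 2614 and 3166 with silwet. Here the SA array was the lower one for each Rep number, by a log2 difference of -0.11 ± 0.40 in the mean (SE; adjusted p = 0.993 by limma), which became 0.06 after quantile normalization. The 95% intervals of PR1 were -0.573 to 1.096 in set 2 and -0.95 to 0.72 in set 3. None of the members passed in set 2 or set 3, where limma called 0% of probe sets (1710 and 308 at an unadjusted p under 0.05). No member had groups that did not overlap there, as 18.2% and 8.28% of all tested probe sets had.

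BGL2 did not follow PR1. In title set 1 its signal was 196, 713 and 396 with SA, against 1427, 454.5 and 570 with silwet. The groups overlapped, and the highest and the lowest BGL2 signal of all 18 arrays both came from Rep 1 of this set, with silwet and with SA. The log2 difference was -0.91 ± 0.44 (SE, n = 3 each), with a 95% interval of -1.85 to 0.03 and an adjusted p of 0.419 by limma. Without the silwet array of Rep 1 it was -0.42 (adjusted p = 0.843), and without all Rep 1 arrays it was 0.06 (adjusted p = 0.974).

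In title set 2 BGL2 was 545, 450 and 527 with SA, against 349, 577 and 733 with silwet, and the log2 difference was -0.06 ± 0.44 (SE). In title set 3 it was 765, 551 and 848 with SA, against 401, 619 and 752 with silwet, and the log2 difference was 0.31 ± 0.44 (SE). BGL2 was -0.36 in set 2 and 0.06 in set 3 without the silwet array of Rep 1, which stood apart in each set. The groups overlapped in both sets, and the adjusted p was 0.962 and 0.991 by limma. The glucanase gene BG1 is the next gene to BGL2 in the TAIR10.1 gene table and BG3 lies 3 places before it. No probe set names either of them here, so the cluster was read through BGL2 alone.

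PR5 lay between the other markers. In title set 1 its signal was 624, 903 and 652 with SA, against 1181, 355 and 278 with silwet. All SA arrays exceeded the silwet arrays of Rep 2 and Rep 3, and none reached that of Rep 1. The log2 difference was 0.55 ± 0.38 (SE, n = 3 each), with a 95% interval of -0.25 to 1.35 and an adjusted p of 0.622 by limma. Without the silwet array of Rep 1 it was 1.18, with an adjusted p of 0.0498. In title set 2 PR5 was 441, 505 and 441 with SA, against 548, 486 and 390 with silwet. In title set 3 it was 665, 541 and 438.2 with SA, against 613, 681 and 450 with silwet. The log2 differences in these sets were -0.03 and -0.08 (SE 0.38 each; adjusted p = 0.98 and 0.993 by limma), and both changed sign under some alternatives. They were 0.08 and -0.04 without the silwet array of Rep 1 of the set.

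The silwet array of Rep 1 in title set 1 thus held the highest BGL2 and PR5 signals of the series and the highest PR1 signal of its cell. It was also the highest silwet array for the SA-induced glutaredoxin gene GRX480 (675, the other 8 from 116 to 377.5). The chitinase gene CHI had 813 on it, against 141 and 332 on the other silwet arrays of set 1. The senescence-associated gene SAG29 had 112, against 23.7 and 20.7. The silwet array of Rep 2 in the same set, lowest of its cell in PR1, was also the lowest there in CHI and in the SA glucosyltransferase gene UGT76B1 (62.7, against 188 and 121). Not all listed genes went this way. The lipase-like gene SAG101 was lowest of the cell on the Rep 1 array (25.5, against 47.7 and 45.0). The transcription factor gene WRKY53 had 222 on it, between 293 and 171. Both were highest of the cell on the Rep 2 array. SAG29 was higher, at 162, on the silwet array of Rep 1 in set 2. The part of these array differences in the results was not tested.

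**Figure D2:**
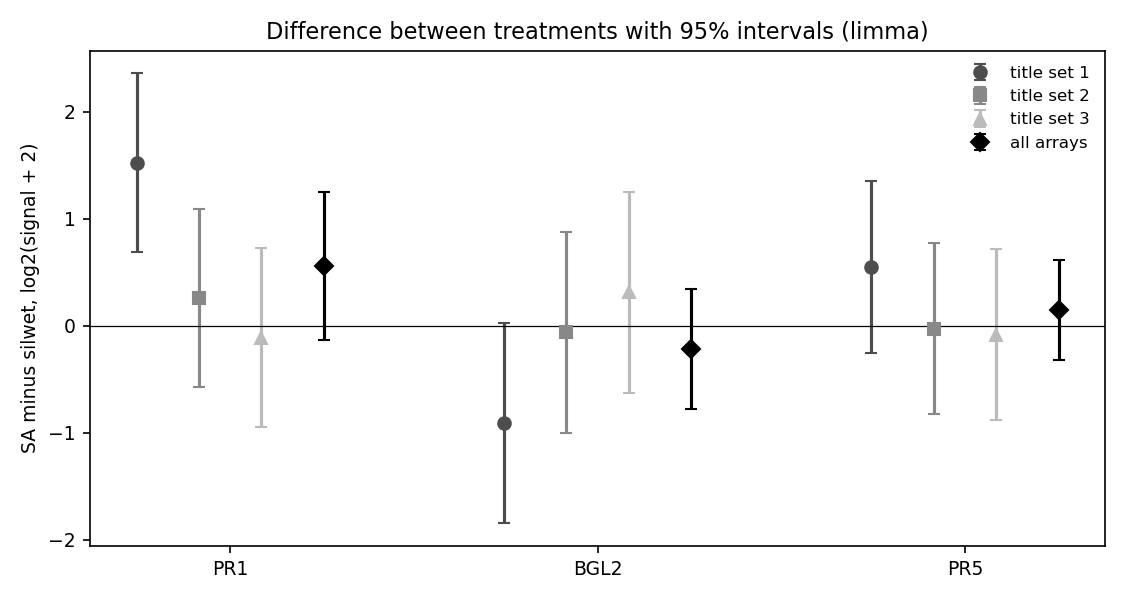
Mean SA minus silwet difference of log2(signal + 2) for PR1, BGL2 and PR5 in title sets 1, 2 and 3 (3 arrays of each treatment) and over all arrays (9 of each); bars are 95% intervals of limma. The interval of PR1 in set 1, from 0.69 to 2.36, is the only one that does not include 0.

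Over all 9 SA and all 9 silwet arrays, PR1 averaged 3086 ± 694 with SA and 2411 ± 1045 with silwet (SD). Its SA signals ran from 2382 to 4184 with a median of 2882, and its silwet signals from 353 to 3517 with a median of 2629. BGL2 averaged 555 ± 200 with SA and 653 ± 321 with silwet, with medians of 545 and 577. PR5 averaged 579 ± 152 with SA and 553 ± 267 with silwet, with medians of 541 and 486 (all SD, n = 9). The ranges overlapped for each gene. The log2 differences were 0.56 ± 0.33 for PR1, -0.22 ± 0.27 for BGL2 and 0.15 ± 0.22 for PR5 (SE), each with an adjusted p of 1 by limma. Single arrays of set 1 moved these values by over 1.5 times. PR1 was 0.24 without the silwet array of Rep 2. BGL2 was -0.07 without the silwet array of Rep 1 and -0.05 without the SA array of Rep 1. PR5 was 0.30 without the silwet array of Rep 1, 0.08 and 0.04 without those of Rep 2 and Rep 3, and 0.06 without the SA array of Rep 2. No member was among the calls, which were 0% of probe sets in this comparison (240 probe sets at an unadjusted p under 0.05). The 95% intervals were -0.13 to 1.25, -0.78 to 0.34 and -0.32 to 0.61, so an average rise of BGL2 by 2-fold lies outside its interval and one of PR1 does not.

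With treatment labels exchanged only within title sets, the exact two-sided permutation p was 0.037 for PR1, 0.5 for BGL2 and 0.533 for PR5. These are 3 separate tests without adjustment. The PR1 value was 0.0938 without the silwet array of Rep 1 in set 1, 0.0508 by sign flips of the 9 pairs of equal set and Rep number, and 0.123 with labels exchanged over all arrays. SA was the higher array in 6 of 9 such pairs for PR1, in 4 for BGL2 and in 5 for PR5. A difference in bulk RNA cannot tell more signal per cell from more cells with the transcript.

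The second question was whether the response differed between title sets. The difference of PR1 in set 1 exceeded that in set 2 by 1.27 ± 0.56 and that in set 3 by 1.64 ± 0.56 on the log2 scale (SE). The interaction of treatment with title set had an adjusted p of 0.322 for PR1, 0.56 for BGL2 and 0.73 for PR5 by limma, and so passed for none. Of all tested probe sets 0.17% passed. The unadjusted p of PR1 was 0.0237, and 7.34% of probe sets had a smaller one.

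The level of PR1 without SA differed between title sets. Among silwet arrays its mean was 1174 ± 766, 3149 ± 463 and 2910 ± 278 in sets 1, 2 and 3 (SD, n = 3 each). All 3 arrays of set 1 lay below all 6 arrays of the other sets, and how many probe sets separate in this way was not counted. The F-test of limma gave an adjusted p of 0.0386, a call shared by 2.12% of probe sets. Set 2 exceeded set 1 by 1.72 ± 0.40 and set 3 exceeded it by 1.61 ± 0.40 on the log2 scale, while sets 2 and 3 differed by 0.11 (SE 0.40). The call held in 10 of 30 alternatives and ended in 20, with an adjusted p from 1.71e-05 to 0.516 and an F ratio of at least 7.99 throughout. The highest adjusted p values came without Rep 2 (0.516) and without Rep 3 (0.284). It was 0.00492 without the silwet array of Rep 1 in set 1, 0.0737 without that of Rep 2 and 0.0879 with median centring.

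Among SA arrays PR1 averaged 2777 ± 558, 3789 ± 669 and 2691 ± 223 in sets 1, 2 and 3 (SD, n = 3 each), and the sets overlapped (adjusted p = 0.546 by limma). In that comparison 23.7% of all probe sets passed, and none of the 3 members did. BGL2 on SA arrays averaged 435 ± 261, 508 ± 50.6 and 721 ± 153 over the sets (adjusted p = 0.29), and PR5 averaged 726 ± 154, 462 ± 37.0 and 548 ± 114 (adjusted p = 0.404). On silwet arrays BGL2 averaged 817 ± 531, 553 ± 193 and 590 ± 177 (adjusted p = 0.959), and PR5 averaged 604 ± 501, 474 ± 79.6 and 581 ± 119 (adjusted p = 0.985; all SD, n = 3, tests by limma). In sets 2 and 3 together PR1 thus stood at 2447 to 4184 with SA and at 2614 to 3517 with silwet. The highest signal of any probe set was between 3682 and 7103 on the different arrays, so PR1 was measured near the top of the range. Whether its probes were still proportional to RNA there was not tested.

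By Rep number, the log2 difference of PR1 was 0.16, 1.17 and 0.34 for Rep 1, 2 and 3. That of BGL2 was -0.43, 0.04 and -0.27, and that of PR5 was -0.37, 0.36 and 0.45. The interaction of treatment with Rep number passed for no member and for 0% of all tested probe sets by limma (adjusted p = 1 for each member, with 631 probe sets at an unadjusted p under 0.05).

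The 3 genes also differed in how much of their variation followed treatment and title set. Treatment, title set and their interaction held 12.7%, 34.1% and 20.1% of the variance of log2 PR1 signal over the 18 arrays. The rest, 33.1%, lay between arrays of the same treatment and set, against a median of 59% over all tested probe sets. For treatment, title set and their interaction the medians over all tested probe sets were 2.04%, 20.6% and 10.9%. For BGL2 72.3% and for PR5 78.9% lay between arrays of the same treatment and set. Rep number alone held 26.7% of the variance of PR5, 4.13% of that of BGL2 and 4.01% of that of PR1, with a median of 14.4% over all probe sets. The SD of the log2 signal was 0.81 for PR1, 0.61 for BGL2 and 0.49 for PR5, and a larger SD was found in 12.1%, 28.6% and 45.5% of probe sets.

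**Figure D3:**
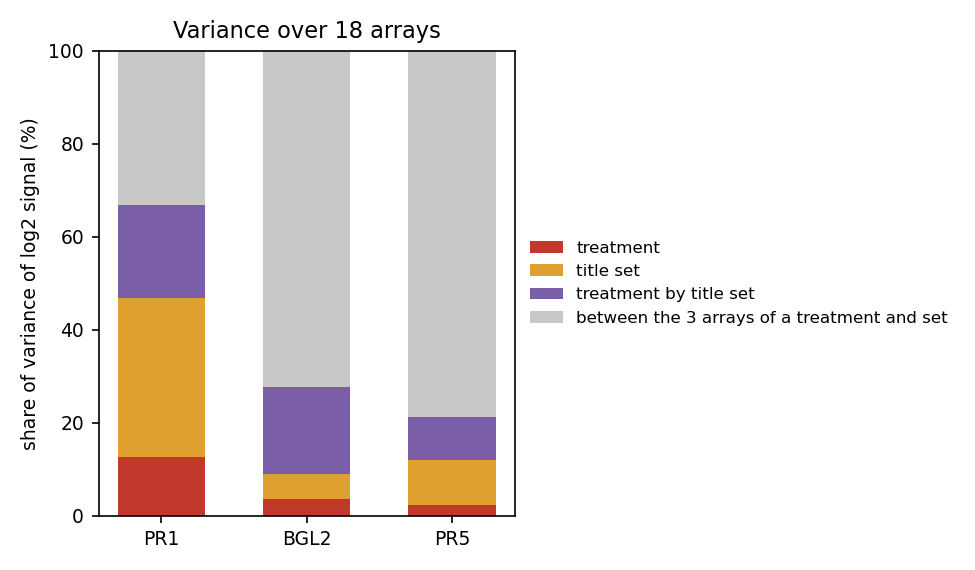
Share of the variance of log2(signal + 2) over the 18 arrays (y axis, %) held by treatment, title set, their interaction and the 3 arrays of a treatment and set, for PR1, BGL2 and PR5. Arrays of the same treatment and set hold 33.1% for PR1, against 72.3% for BGL2 and 78.9% for PR5.

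No pair of the markers passed the threshold of 0.05 for a correlation over the 18 arrays. Pearson's r of log2 signals over 18 arrays was 0.02 for PR1 and BGL2, 0.29 for PR1 and PR5 and 0.23 for BGL2 and PR5, with permutation p of 0.93, 0.221 and 0.357 and adjusted p of 0.93, 0.535 and 0.535 over the 3 pairs. Spearman's rho was -0.08, 0.04 and 0.04 (permutation p = 0.76, 0.869 and 0.869, adjusted p = 0.869 each). Without the 2 arrays farthest from the median of the first gene of each pair, r was -0.24, -0.50 and -0.02 (permutation p = 0.376, 0.0517 and 0.934). The positive r of PR1 and PR5 therefore rested on these arrays, the silwet arrays of Rep 2 and Rep 3 in set 1. Without the silwet array of Rep 1 in set 1, r was 0.11, 0.46 and -0.14 (17 arrays, permutation p = 0.649, 0.0776 and 0.578), so the sign for BGL2 and PR5 rested on that array.

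Within title sets the same pairs gave r of 0.03, 0.64 and 0.42 in set 1, -0.56, 0.57 and -0.91 in set 2, and 0.18, -0.47 and -0.45 in set 3 (6 arrays each). The smallest exact permutation p among these 9 values was 0.0222, for BGL2 and PR5 in set 2, with an adjusted p of 0.0667 over the 3 pairs of that set. Deviations from the mean of each treatment and set gave r of 0.51, 0.51 and 0.48 (permutation p = 0.0284, 0.0531 and 0.0428, adjusted p = 0.0531 each). These deviations share the cell means that were taken off them. The permutation exchanged them over all arrays as if they were independent, which those of a treatment and set are not. These permutation p values may therefore be too small.

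**Figure D4:**
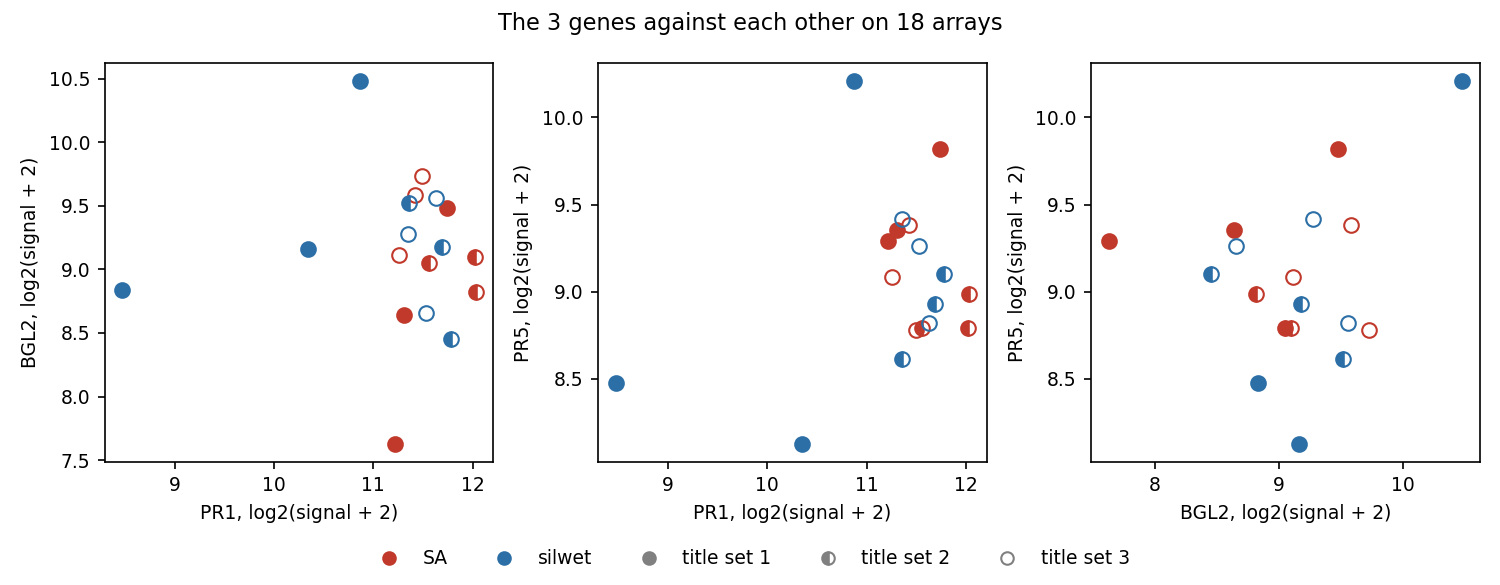
Log2(signal + 2) of PR1, BGL2 and PR5 against each other, 1 point for each of the 18 arrays, coloured by treatment and filled by title set. The silwet arrays of set 1 lie apart at low PR1, and the point at the top right of the third panel is the silwet array of Rep 1 in set 1.

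Of 31 listed genes of SA synthesis, perception and signalling, 5 had a probe set naming them and 4 were tested. In title set 1, 2 of these 4 passed and both were higher with SA, beside 0.465% of all probe sets called higher. This list and those below were chosen with earlier results of these data known, so their counts and medians are descriptions, not tests. UGT76B1, which conjugates SA and related defence signals, had 1561, 1356 and 1398 with SA, against 188, 62.7 and 121 with silwet. Its log2 difference in set 1 was 3.65 ± 0.43 (SE; adjusted p = 0.000979 by limma). AT5G52810, a reductase gene of the pipecolic acid pathway of systemic resistance, had 504, 473 and 519 with SA, against 283, 131 and 164 with silwet. Its log2 difference was 1.44 ± 0.27 (SE; adjusted p = 0.0198 by limma). The call of AT5G52810 ended without the silwet array of Rep 2 (adjusted p = 0.0899) and without the SA arrays of Rep 1, 2 and 3 (adjusted p = 0.0922, 0.0848 and 0.081), at log2 differences of 1.205 to 1.477. That of UGT76B1 held without each array of the set (adjusted p up to 0.0125). In both genes all SA arrays of set 1 lay above all silwet arrays, as for PR1 and for 8.54% of all tested probe sets. UGT76B1 was 0.51 in set 2 and 1.32 in set 3 (SE 0.43 each; adjusted p = 0.632 and 0.991 by limma). Its set 3 signals were low, 31.9 to 34.8 with SA and 8.72 to 19.2 with silwet. These groups did not overlap, as in 8.28% of all tested probe sets in that set. AT5G52810 was -0.40 in set 2 and 0.01 in set 3 (SE 0.27 each; adjusted p = 0.552 and 0.999 by limma).

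The lipase-like gene SAG101, a partner of EDS1 in immunity, had a log2 difference of 0.78 ± 0.32 in set 1 (SE; adjusted p = 0.304), or 0.51 without the silwet array of Rep 1, and -0.84 ± 0.32 in set 2 (adjusted p = 0.453). The methyltransferase gene BSMT1 had -1.08 ± 0.64 in set 1 (SE; adjusted p = 0.541, all by limma). SAG101 was 0.21 in set 3, and BSMT1 was 0.59 in set 2 and 0.46 in set 3. The median over the 4 genes in set 1 was 1.11, beside -0.01 over all tested probe sets, and lay between 1.07 and 1.13 without each array of the set. It lies midway between AT5G52810 and SAG101, and these moved in opposite directions without the silwet array of Rep 1, to 1.75 and 0.51. The narrow range thus does not hold for the single genes. In sets 2 and 3 the median was 0.05 and 0.34, but single arrays moved it between -0.29 and 0.07 and between 0.01 and 0.82.

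Of 9 listed SA-responsive regulators 2 were tested and neither passed in any set. WRKY53 had 590, 652 and 413 with SA in title set 1, against 222, 293 and 171 with silwet. The log2 difference was 1.27 ± 0.32 (SE; adjusted p = 0.0727 by limma). GRX480 had 725, 827 and 714 with SA in that set, against 675, 346 and 264 with silwet, and a log2 difference of 0.93 ± 0.40 (SE; adjusted p = 0.34 by limma). In both genes all SA arrays of set 1 lay above all silwet arrays, as in 8.54% of all tested probe sets. In sets 2 and 3 the log2 difference of WRKY53 was -0.49 and -0.31 (SE 0.32 each). That of GRX480 was 0.20 and -0.19 (SE 0.40 each).

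Of 11 other PR-type genes 4 were tested and none passed. The chitinase gene CHI, which also responds to SA, had a log2 difference of 0.16 ± 0.41 in set 1, and the osmotin gene OSM34, of the same thaumatin-like family as PR5, had -0.25 ± 0.59. The jasmonate-type markers PDF1.2, a defensin, and THI2.1, a thionin, had -1.59 ± 0.72 and -1.24 ± 0.74 (all SE). Their adjusted p values were 0.931, 0.923, 0.369 and 0.55 by limma. Leaving out the silwet array of Rep 1 gave 0.79 for CHI, 0.16 for OSM34, -0.98 for PDF1.2 and -1.13 for THI2.1, and without that of Rep 2 CHI was -0.47 and OSM34 was -0.91. The directions of CHI and OSM34 in set 1 thus rested on single arrays. The median over the 4 genes in set 1 was -0.75, beside -0.01 over all tested probe sets. Without the silwet array of Rep 1 it was -0.41, beside -0.09. PDF1.2 signals in set 1 were 4.22 to 7.42 with SA and 14.0 to 55.2 with silwet. Those of THI2.1 were 18.6 to 22.5 and 39.0 to 61.4, and those of OSM34 were 13.4 to 29.7 and 7.80 to 41.25. These are low signals, beside array medians of 23.3 to 36.6. In sets 2 and 3 the log2 difference of OSM34 was 0.98 and 1.04 (SE 0.59 each), with 0.34 in set 3 without the silwet array of Rep 2. That of CHI was 0.09 and 0.39 (SE 0.41 each). PDF1.2 had 0.02 and -0.64 (SE 0.72 each), and THI2.1 had -0.86 and -0.74 (SE 0.74 each).

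**Figure D5:**
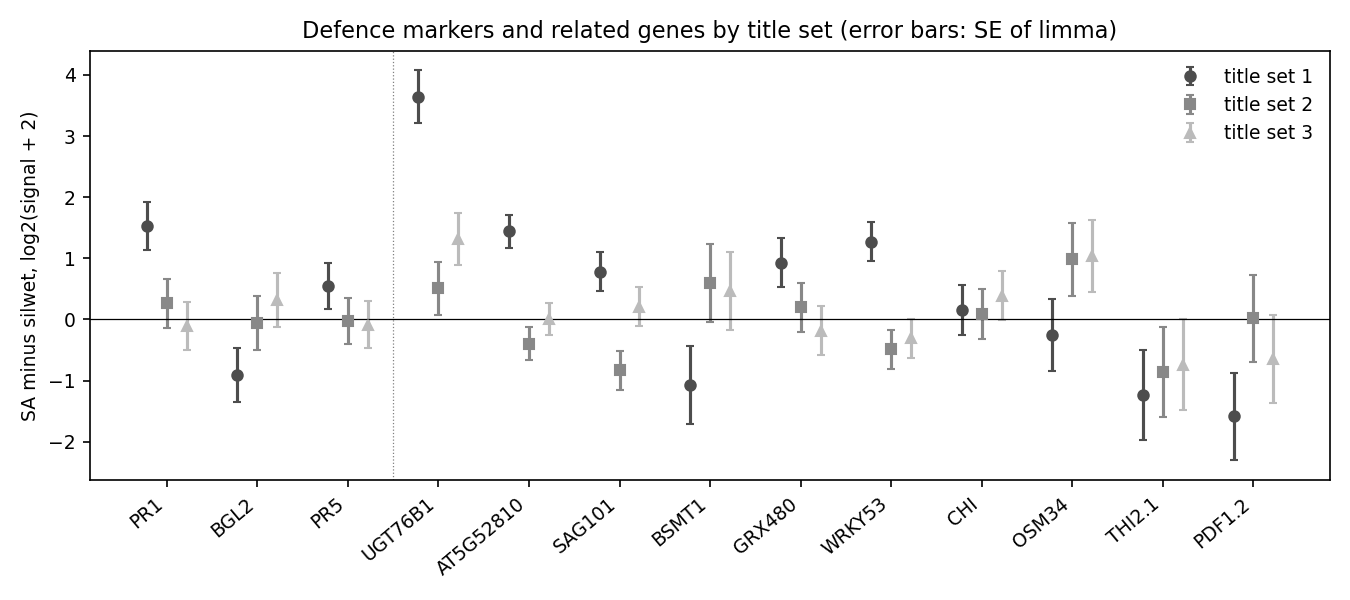
Mean SA minus silwet difference of log2(signal + 2) in title sets 1, 2 and 3 for PR1, BGL2 and PR5 (left of the dotted line) and for 10 related genes, with SE of limma as bars. In set 1 UGT76B1 stands at 3.65, AT5G52810 at 1.44 and PR1 at 1.53, while BGL2 stands at -0.91.

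The named genes whose signal was most like that of PR1 over the 18 arrays were AT4G29580, AT1G73650, AT2G24390, AT3G24250 and AT1G20770, with Pearson's r from 0.81 to 0.86. Those most like BGL2 were AT5G65250, AT1G72810, AT5G58300, AT2G16660 and AT1G62500, with r from 0.71 to 0.80. Those most like PR5 were AT4G17420, AtRZ-1b, AT1G73820, AT5G52740 and AT4G25710, with r from 0.73 to 0.79. Among all 15922 tested probe sets, 11 reached an r of 0.8 with PR1 and none with BGL2 or PR5. The likeness is a description over arrays that share treatment and title set, and the 3 lists have no gene in common.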

How the data were processed

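ATH1 arrays of 18 Van-0 samples were analysed. The deposited intensities are linear MAS5 signals, per the submitters' processing notes. The sources used here do not give the MAS5 version or the scanner. Every array had a trimmed mean of 100, which hides any shift common to most transcripts. No label says that samples came from separate plants, so the spread behind the p-values may be technical.

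Signals were analysed as log2(signal + 2), which understates changes of low signals. The 64 control probe sets and the lowest 30% by mean were left out, which left 15922. The members passed this filter. Differences were tested by limma 3.58.1 in R 4.3.3 (lmFit, eBayes with trend, two-sided, Benjamini-Hochberg over all tested probe sets, threshold 0.05). Treatment was tested over all arrays, and by title set in a fit of 6 treatment and set cells, which pools the spread of 18 arrays. Exact permutation tests used numpy 2.4.6, and correlations used 100000 resamples or, within sets, all orders. In simulated data for title set 1, with 3 runs of 200 changed among 15922 probe sets, the fit called 19.7% of the 2-fold and 71.3% of the 4-fold changes. The number of arrays limits the precision.

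Members and lists were chosen with earlier results of these data known. Names of related genes come from the platform's annotation table, updated by gene identifier (13513 probe sets with 1 gene, 503 with several, 8794 unnamed). The rule took the members, all tested genes of the lists that passed with up to 8 others, and the 5 named genes most like each member. Promoter motifs were not searched, since no sequence was used here. The alternatives covered pseudocount, filter, scaling, weights, blocks and arrays left out.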

Additional observations from a re-analysis of the deposited data

Results flagged for a closer look

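Each member was looked at on the log2 scale in the 9 arrays of each treatment for a highest or lowest array whose gap to its nearest neighbour, as a share of the range, exceeded Dixon's 95% limit for 9 values. Of the 6 groups 1 was set apart, and chance sets apart about 1 group in 20. The lowest PR1 signal among silwet arrays, 353 on the array of Rep 2 in title set 1, stood below the others (1299 to 3517) by 0.57 of the whole range. The limit takes the 9 arrays as alike, although all silwet arrays of set 1 were low in PR1. It cannot tell a difference between title sets from a single outlying array. BGL2 on the SA array of Rep 1 in set 1 (196) and on the silwet array of the same Rep and set (1427) came close to that limit, at 0.48 and 0.46.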

How the results depend on the processing

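The members' differences over all arrays missed the threshold under all 32 alternatives (0.242 to 0.757 for PR1, -0.414 to -0.047 for BGL2) and kept their direction, except that PR5 was -0.007 without replicate 3 (up to 0.405 without replicate 1). PR1 in title set 1 was positive in all 31 (0.656 without replicate 2 to 2.115 without replicate 1 among the arrays left out) and passed in 3, with quantile normalization (1.723), with array weights (2.598) and without the silwet array of Rep 1. Array weights, whose estimation did not reach its tolerance, ran from 0.191 to 5.63. They raised PR5 in set 1 past the threshold (1.007), turned it to 0.044 in set 2 and 0.03 in set 3, and gave 2339, 1645 and 40 calls in sets 1, 2 and 3, 3955 for the interaction with title set, 2953 among silwet sets, 9902 among SA sets and 2842 for the Rep interaction. Under these weights the interaction with title set also passed for PR1 and PR5 (adjusted p = 0.00146 and 0.0316 by limma), the silwet sets for PR5 (0.041) and the SA sets for BGL2 and PR5 (0.0311 and 0.0336). Quantile normalization turned PR1 in set 3 (0.058) and gave 1 call in set 2 and 59 for the interaction. Median centring turned BGL2 (0.096) and PR5 (0.132) in set 2, with 69 calls in set 1 and 5 for the interaction. Without the silwet arrays low in 5' signal, PR5 in set 2 was 0.084, and the calls were 324 in set 1 and 427 for the interaction. Title set as a block gave 1 call over all arrays, and the 6 arrays of set 1 alone gave 6. The causes were not tested.

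With single arrays or Rep numbers left out, calls ran from 1 to 230 in set 1, 0 to 589 in set 2, 0 to 332 for the interaction, 3 to 522 among silwet sets, 787 to 4846 among SA sets and 0 to 62 for the Rep interaction. In set 1 BGL2 ran from -1.687 to 0.062 and PR5 from 0.145 to 1.283. In set 2 BGL2 ran from -0.415 to 0.172 and PR5 from -0.161 to 0.116, and in set 3 BGL2 ran from 0.004 to 0.55 and PR5 from -0.257 to 0.066.

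The exact permutation difference of PR1 missed the threshold with labels permuted over all arrays (0.559), with sign flips (0.559), with median centring (0.574) and without the silwet array of Rep 1 in set 1 (0.542). The correlation of PR1 with BGL2 was -0.077 by Spearman, -0.025 after quantile normalization and 0.514 for deviations from cell means. That of BGL2 with PR5 was 0.481 for such deviations and -0.144 without the silwet array of Rep 1 in set 1.

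With Rep number as a replicate block, calls were 280 in set 1, 188 for the interaction and 549 among silwet sets, and PR1 in set 1 had an adjusted p of 0.0617 by limma. Deviations of same-numbered arrays in a title set correlated over 0.1 in 8 of 9 cases (0.022 to 0.535), against -0.419 to 0.173 for other numbers, and 16 of 18 arrays correlated best with their own number. This is a hint of pairing from the data, and the further number in each title goes the same way. In its order the arrays fall into groups by Rep number. Within these, the SA and silwet arrays of the same title set are always neighbours. No label says what that number means or states a pairing, and 1 case was under 0.1. The fits without the block were therefore kept, and they ignore any such pairing. Leaving out arrays for the related genes was chosen after the array differences were seen. With 3 arrays in a cell, 2-fold changes were mostly missed in simulated data.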
